A study of Homo sapiens with 15 samples.

Results

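HuCC-T1 is a cell line from a human intrahepatic cholangiocarcinoma (iCCA), a cancer of the bile duct epithelium, and its 5 cell line-derived xenograft (CDX) tumors were set here against the tumors of both other models of the series. The other models were HuCC-A1, also an iCCA line, and EGI-1, an extrahepatic cholangiocarcinoma (eCCA) line, with 5 tumors each, so that HuCC-T1 supplied 5 of 15 RNA-seq libraries. All 15 tumors carried only vehicle: PBS was given i.p. once per week for 6 weeks to HuCC-A1 mice and for 4 weeks to EGI-1 mice, and the length for HuCC-T1 mice is not stated by the labels. The hosts were NRG mice (NOD Rag1-/- IL2Rgc-/-) of both sexes, 8 weeks old at the start, which lack T, B and NK cells but keep myeloid cells, vessels and fibroblasts of their own. Each model was 1 cell line, so a difference between models is a difference between these lines and cannot be told apart from the time on vehicle. A HuCC-T1 gene was taken as one whose 5 HuCC-T1 values all lay above, or all below, the 10 values of the other tumors, in CPM, the reads of a gene relative to the library total, scaled by TMM. Of 21019 genes that passed the filter on low counts, 1792 had every HuCC-T1 tumor above and 1550 every HuCC-T1 tumor below, 3342 in all.

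Cholangiocytes are polarised epithelial cells that keep keratins such as KRT7 and KRT19, the transcription factor SOX9 and claudin-based tight junctions, and CCA cells can combine these with genes of mesenchymal cells. The CDKN2A and CDKN2B genes lie side by side on chromosome 9 and encode inhibitors of the kinases CDK4 and CDK6, which push cells from G1 into S phase, and this locus is often lost in biliary cancers. HOX genes lie in clusters, encode transcription factors that give cells positional identity, and keep stable on or off states in cell lines.

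The HuCC-T1 libraries held 26163778 to 33984103 counts (median 29222431), within or close to the range of HuCC-A1 (20001412 to 33585265) and below that of EGI-1 (34239460 to 44067878). KRT19 stood at 3060 to 8760 CPM and SOX9 at 104 to 172 CPM in the HuCC-T1 tumors, so both matched the biliary label. ALB, the albumin gene of hepatocytes, was at most 0.0623 CPM. Another hepatocyte marker, SERPINA1, went the other way, at 238 to 427 CPM in HuCC-T1, 347 to 625 in HuCC-A1 and 123 to 193 in EGI-1. The 5 remaining hepatocyte markers, ALB among them, summed to 0.486 to 1.82 CPM in HuCC-T1. HuCC-T1 replicates 1 and 5 stood somewhat apart from the other HuCC-T1 tumors: their mean correlation with their own model was 0.967 and 0.97, against 0.975 to 0.979 for replicates 2, 3 and 4. Each gene was set against its own mean over the 5 HuCC-T1 tumors. Over the squamous keratin list the median gene of replicate 5 lay 1.15 (log2) above that mean, and over the cell cycle list 0.64 above. Over the interferon list replicate 1 lay 1.0 below and replicate 5 0.71 above. Without replicate 1 the rule found 2344 genes above and 2042 below, and without replicate 5 it found 2133 and 1953. Neither labels nor methods say whether reads of mouse cells were removed before counting, and no sample holds the lines without a host.

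The differences were called with edgeR's quasi-likelihood test at an adjusted p of 0.05, in a contrast that weighted HuCC-A1 and EGI-1 equally and in each pairwise contrast. Against both models, 28.3% of the tested genes were called higher in HuCC-T1 and 25.6% lower. Against HuCC-A1 alone the shares were 27.2% higher and 29.1% lower, and against EGI-1 alone 27.3% and 25.0%. Complete separation was rarer: 8.53% of genes had every HuCC-T1 tumor above and 7.37% every HuCC-T1 tumor below. Nearly all of these were also called in the same direction in all 3 contrasts, 1750 above (8.33%) and 1538 below (7.32%), which left 42 and 12 that were not. The order of the tumors and the tests use the same values, so an adjusted p of a separated gene is a description of its size and spread and no independent support. At the edge of the rule, SH3RF2 was just inside (lowest HuCC-T1 tumor 145 CPM, highest other tumor 145 CPM) and VPS13A just outside (65.5 against 65.5 CPM). The lowest HuCC-T1 tumor exceeded the highest other tumor at least 4-fold for 198 genes and at least 10-fold for 97, and the mirrored counts below were 171 and 96.

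A small set of genes was switched on only in HuCC-T1, at 1 CPM or more in each HuCC-T1 tumor and at most 0.1 CPM in each of the other 10. There were 21 such genes, 13 of them protein coding, and they included both INK4 inhibitors, a chemokine, a link protein of the matrix and several membrane proteins. TMEM47, which encodes a tetraspan protein of cell junctions, had the highest HuCC-T1 mean of these genes. It stood at 224, 192, 307, 374 and 129 CPM in HuCC-T1 replicates 1 to 5 and had no count in any of the other 10 tumors. Taking 3 counts per group as the limit of detection, the HuCC-T1 mean of 245 ± 96.5 CPM (SD, n = 5) was at least 12200-fold higher than HuCC-A1 and at least 14900-fold higher than EGI-1. CXCL5, a neutrophil-attracting chemokine, had the same pattern, with 68.8, 185, 249, 151 and 235 CPM in HuCC-T1 and no count elsewhere, a mean at least 8860-fold above HuCC-A1 and 10800-fold above EGI-1. LRRN1, a leucine-rich repeat membrane protein of neurons, was at 148, 335, 262, 260 and 128 CPM in HuCC-T1, with only 5 counts over HuCC-A1 and none over EGI-1. ATP10A, a phospholipid flippase, varied least among these genes, with 141, 134, 157, 142 and 148 CPM in HuCC-T1, 3 counts in all over HuCC-A1 and 2 over EGI-1. HAPLN1, the link protein that ties hyaluronan to versican, was at 42.6, 111, 67.7, 69.6 and 52.4 CPM against 5 and 3 counts. Members with lower levels included the following: GLRB, the beta subunit of the glycine receptor, averaged 13.7 ± 4.88 CPM, RHEX, a regulator of erythroid expansion, 8.75 ± 4.16 CPM, HS3ST3A1, a heparan sulfate sulfotransferase, 4.53 ± 0.875 CPM, and TNFSF11, which encodes RANKL, 3.03 ± 1.16 CPM (SD, n = 5 each). Among the noncoding members, AC006058.1 reached 67.6 to 120 CPM in HuCC-T1 with no count elsewhere. It overlaps AC006058.4 on the other strand, so that reads of the pair may be shared between them.

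**Figure D1:**
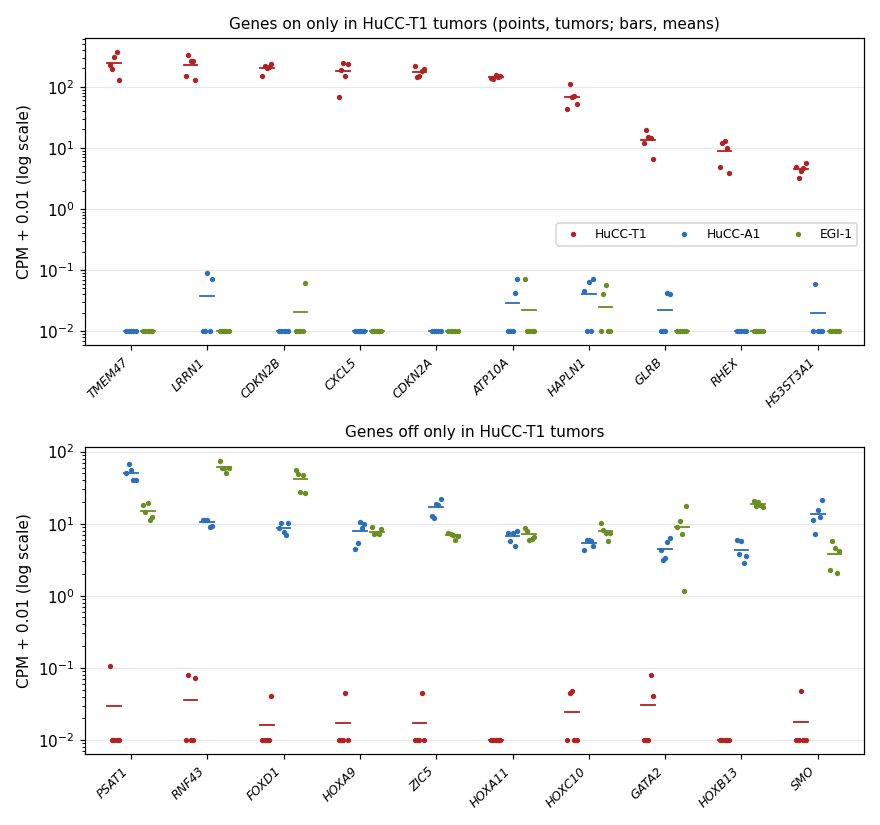
Values by tumor of the 10 protein-coding genes on only in HuCC-T1 with the highest means (top) and of the 10 off only in HuCC-T1 (bottom), as TMM-scaled CPM + 0.01 on a log axis. Points are tumors and bars are means of 5. Every HuCC-T1 point lies above 3 CPM in the top panel and below 0.1 CPM in the bottom panel.

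CDKN2A and CDKN2B, both on only in HuCC-T1, lay in the longest run of neighboring genes that were separated above. CDKN2A, which encodes p16INK4a and p14ARF, stood at 215, 144, 149, 181 and 198 CPM in HuCC-T1, a mean of 177 ± 30.6 CPM (SD, n = 5) from 26358 counts, and had no count in the 10 other tumors. This put HuCC-T1 at least 8840-fold above HuCC-A1 and at least 10800-fold above EGI-1. CDKN2B, which encodes p15INK4b, was at 149, 222, 201, 207 and 238 CPM, with no count in HuCC-A1 and 2 counts in 1 EGI-1 tumor. Counting by gene cannot separate the CDKN2A transcripts, and both genes overlap CDKN2B-AS1 on the other strand. That antisense gene was at 7.57 to 15.9 CPM in HuCC-T1, at most 0.991 CPM in HuCC-A1 and without a count in EGI-1. MTAP, the gene next to CDKN2A, encodes the enzyme that recycles methylthioadenosine. It separated all 3 models: HuCC-T1 had 187, 194, 184, 154 and 230 CPM, HuCC-A1 25.4 to 38.3 CPM, and EGI-1 2 counts in 5 tumors. IFNE, an interferon gene that lies inside MIR31HG on the same strand, so that reads of the pair may be shared, was at 70.0 ± 21.0 CPM in HuCC-T1, 11.8 ± 3.6 CPM in HuCC-A1 and 0.731 ± 0.232 in EGI-1.

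On chromosome 9, between 21455484 and 22121097 (GRCh38), 13 tested genes in a row had every HuCC-T1 tumor above, from the pseudogene IFNWP19 through MIR31HG, IFNE, MTAP, CDKN2A and CDKN2B to the pseudogene UBA52P6. On the far side of CDKN2B the order changed: DMRTA1 averaged 13.1 CPM in HuCC-T1 and 18.7 CPM in HuCC-A1, and had no count in EGI-1. KLHL9, on the near side, was expressed by all 3 models, at 70.6, 67.7 and 41.7 CPM in HuCC-T1, HuCC-A1 and EGI-1. These data hold RNA levels only, and the copy number and methylation of the locus were not tested. The longest run below lay on chromosome 12, between 53938765 and 54056030, with 10 genes from HOXC13 to HOXC4 that included HOTAIR. The next longest run above held 7 genes on chromosome 5, between 83049376 and 84490765: VCAN, HAPLN1 and EDIL3, all of which encode proteins of the matrix, stood together with XRCC4, TMEM167A and a pair of noncoding genes. EDIL3, an integrin ligand, was at 246, 746, 729, 572 and 354 CPM in HuCC-T1, and its HuCC-A1 and EGI-1 means were 4.48 and 4.58 CPM. XRCC4, a DNA repair gene in the same run, differed by less, with 21.2 ± 2.19, 10.8 ± 1.82 and 13.8 ± 2.61 CPM.

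**Figure D2:**
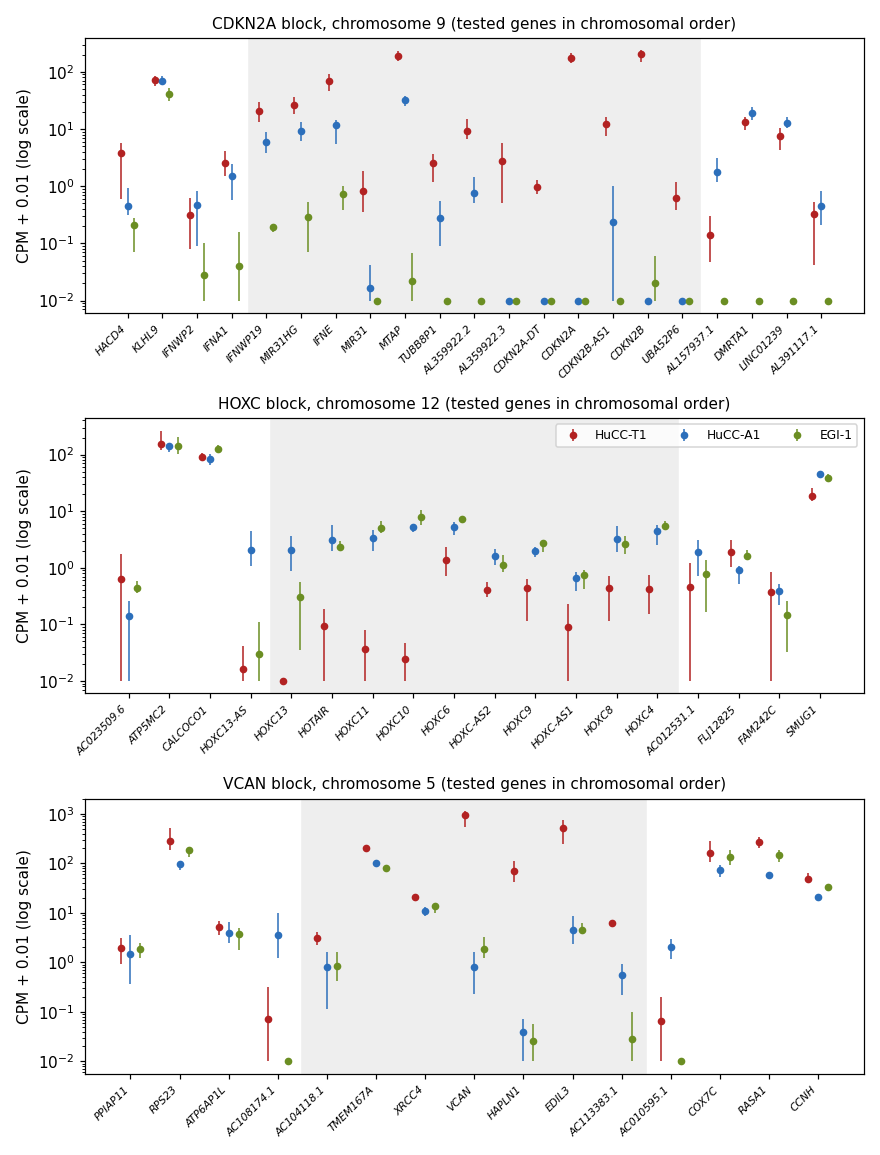
Means (points) with the lowest and highest tumor (bars) of the tested genes in chromosomal order around 3 runs of HuCC-T1 genes, as CPM + 0.01 on a log axis, with 5 tumors per model. The shaded runs hold 13 genes above on chromosome 9, 10 below on chromosome 12 and 7 above on chromosome 5, and of the genes drawn beside them SMUG1, RASA1 and CCNH are separated too.

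The mirrored set was switched off only in HuCC-T1, with at least 1 CPM in each of the other 10 tumors and at most 0.1 CPM in each HuCC-T1 tumor. It held 24 genes, 19 of them protein coding. PSAT1, the aminotransferase that makes phosphoserine in the serine synthesis pathway, had the highest level among them by the lower of the other means. It had 3 counts over the 5 HuCC-T1 tumors, all in replicate 1, against 49.8, 67.8, 54.7, 39.7 and 40.1 CPM in HuCC-A1 and 18.4, 14.6, 19.1, 11.2 and 12.3 CPM in EGI-1. The steps before and after it were read in HuCC-T1: PHGDH stood at 25 to 61 CPM, overlapping EGI-1 (37.3 to 55 CPM), and PSPH at 15 to 30.2 CPM, above each EGI-1 tumor (at most 12.6 CPM) and below each HuCC-A1 tumor (at least 34.7 CPM). RNF43, a ubiquitin ligase that removes Wnt receptors from the cell surface, had 4 counts over HuCC-T1. HuCC-A1 had 11.1, 11.2, 11.3, 9.08 and 9.3 CPM of it, and EGI-1 75, 58.3, 59.7, 50.6 and 58.2 CPM. SMO, the signal transducer of the Hedgehog pathway, had 1 count over the HuCC-T1 tumors and averaged 13.6 ± 5.19 CPM in HuCC-A1 and 3.79 ± 1.59 in EGI-1. The transcription factors FOXD1 (1 count in HuCC-T1), ZIC5 (1 count) and GATA2 (3 counts) were in the same class, with means of 8.74, 16.8 and 4.51 CPM in HuCC-A1 and 41, 6.86 and 9.12 CPM in EGI-1.

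Other genes were close to off in HuCC-T1 while well expressed in both other models. CD81, a tetraspanin of the cell surface, was at 0, 0.104, 0.0748, 0.0353 and 0.0623 CPM in HuCC-T1, 94.4 to 131 CPM in HuCC-A1 tumors and 258 to 439 in EGI-1 tumors. The HuCC-T1 mean was thus 2090-fold below HuCC-A1 and 5770-fold below EGI-1 (averaged log2 difference -11.68, SE 0.316, adjusted p = 2.67e-14). TIMP3, an inhibitor of matrix metalloproteinases, was at 0.064 to 0.283 CPM in HuCC-T1, 71.6 to 254 in HuCC-A1 and 287 to 450 in EGI-1. BMP7, a bone morphogenetic protein, had 6 counts over HuCC-T1, all in replicate 3, and stood at 4.95 to 41.1 CPM in HuCC-A1 tumors and 74.9 to 239 in EGI-1 tumors. PAX9, a paired box transcription factor, averaged 0.0468 CPM in HuCC-T1 and 29.5 CPM in each other model, and RUNX3, a Runt-family transcription factor, 0.255, 20.8 and 12.5 CPM. HERC5, the ligase that attaches ISG15 to proteins, averaged 0.482 ± 0.432, 47.4 ± 13.1 and 51.6 ± 9.17 CPM. ULK2, a kinase that starts autophagy, was at 0.305 ± 0.242, 21.6 ± 3.12 and 13.6 ± 2.91 CPM.

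HOX genes held the largest share of HuCC-T1-low members among all lists: 14 of 28 tested HOX genes had every HuCC-T1 tumor below and were called lower in all 3 contrasts, beside a background of 7.32%. In the averaged contrast 19 were called lower and 4 higher, and the median log2 difference of the list was -2.627, against 0.018 over all genes. HOXB13, a posterior gene of the B cluster, had no count in the 5 HuCC-T1 tumors, 5.98, 3.75, 5.68, 2.83 and 3.56 CPM in HuCC-A1, and 20.7, 17.4, 19.9, 18.3 and 16.9 CPM in EGI-1. HOXA11 also had no count in HuCC-T1, with 4.86 to 7.92 in HuCC-A1 and 6.01 to 8.82 in EGI-1, at least 327-fold and 347-fold more. HOXA9 had 1 count and HOXC10 2 counts over HuCC-T1, and the means were 7.85 and 5.34 CPM in HuCC-A1 and 7.77 and 7.8 CPM in EGI-1. The long noncoding HOTAIR, which lies in the HOXC cluster, was at 0.0828 ± 0.0722 CPM against 3.12 ± 1.41 and 2.36 ± 0.407 CPM. Within the same clusters some members stayed expressed in HuCC-T1. HOXB3 stood at 135 to 177 CPM, above each HuCC-A1 tumor (at most 20.8 CPM) and overlapping EGI-1 (102 to 153 CPM). HOXA13, the last gene of the A cluster, stood at 4.8 to 16.3 CPM and overlapped both models (averaged log2 difference 0.06, SE 0.263, adjusted p = 0.874). Several HOX genes, HOXA9 and HOXB3 among them, overlap a neighbor of their cluster on the same strand. Reads may thus be shared or lost among them, and their counts are not fully separate.

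Promoter sequences are shown for 4 of the on-only and off-only genes, to show how far the density of CpG pairs, the sites of DNA methylation, can differ within a class. They stand at the low and the high end among the plotted genes of each class that have a RefSeq window. The windows are the 250 bases before the RefSeq start (GRCh38.p14), written 5′ to 3′ on the strand of the gene, with each CpG in capitals. HAPLN1, on only, lies at chr5:83720856-83721105 (minus strand) and holds 5 CpG, and TMEM47, on only, at chrX:34657286-34657535 (minus) and holds 34. RNF43, off only, lies at chr17:58417535-58417784 (minus) and holds 4 CpG, and PSAT1, off only, at chr9:78296875-78297124 (plus) and holds 30. RefSeq lists a further start for RNF43, which is not shown. In GENCODE the HAPLN1 gene begins farther upstream, at 83721613, so the HAPLN1 window lies within the annotated gene.
HAPLN1: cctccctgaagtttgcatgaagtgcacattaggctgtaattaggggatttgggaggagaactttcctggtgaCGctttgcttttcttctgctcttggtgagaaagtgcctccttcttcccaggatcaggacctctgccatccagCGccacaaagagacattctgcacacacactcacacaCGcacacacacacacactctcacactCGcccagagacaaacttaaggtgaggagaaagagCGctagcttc
TMEM47: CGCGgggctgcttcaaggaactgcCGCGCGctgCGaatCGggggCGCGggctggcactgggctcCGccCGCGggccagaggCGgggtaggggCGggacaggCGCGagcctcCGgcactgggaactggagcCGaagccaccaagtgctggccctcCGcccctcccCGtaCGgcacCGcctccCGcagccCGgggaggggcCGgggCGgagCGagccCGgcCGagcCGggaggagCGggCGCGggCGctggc
RNF43: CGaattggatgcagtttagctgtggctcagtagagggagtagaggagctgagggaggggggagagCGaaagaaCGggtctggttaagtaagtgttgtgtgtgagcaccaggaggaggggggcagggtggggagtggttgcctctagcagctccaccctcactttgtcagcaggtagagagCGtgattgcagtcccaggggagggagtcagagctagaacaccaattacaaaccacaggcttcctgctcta
PSAT1: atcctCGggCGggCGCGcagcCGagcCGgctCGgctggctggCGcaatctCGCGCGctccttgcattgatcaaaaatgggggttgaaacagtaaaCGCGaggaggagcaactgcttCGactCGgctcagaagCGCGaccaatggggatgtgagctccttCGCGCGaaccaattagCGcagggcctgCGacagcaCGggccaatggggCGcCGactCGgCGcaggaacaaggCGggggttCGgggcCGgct
Each class thus held promoters with few and with many CpG. Over the genes with a RefSeq window of 300 bases (250 before and 50 after the start), the median was 24 CpG for the 1100 genes above, 26 for the 1056 below and 25 for all 11580 tested genes that have one. Over the genes with a gap of at least 10-fold and a window, the medians were 17 CpG for 50 genes above and 26 for 50 below, and no test was run on them. The E-box CACCTG, read on both strands, was present in 15.5% of windows of genes above, 21.1% of those below and 19.2% of all. TATAAA was present in 6.36%, 6.72% and 6.44%. These are matches of letters and not binding sites.

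**Figure D3:**
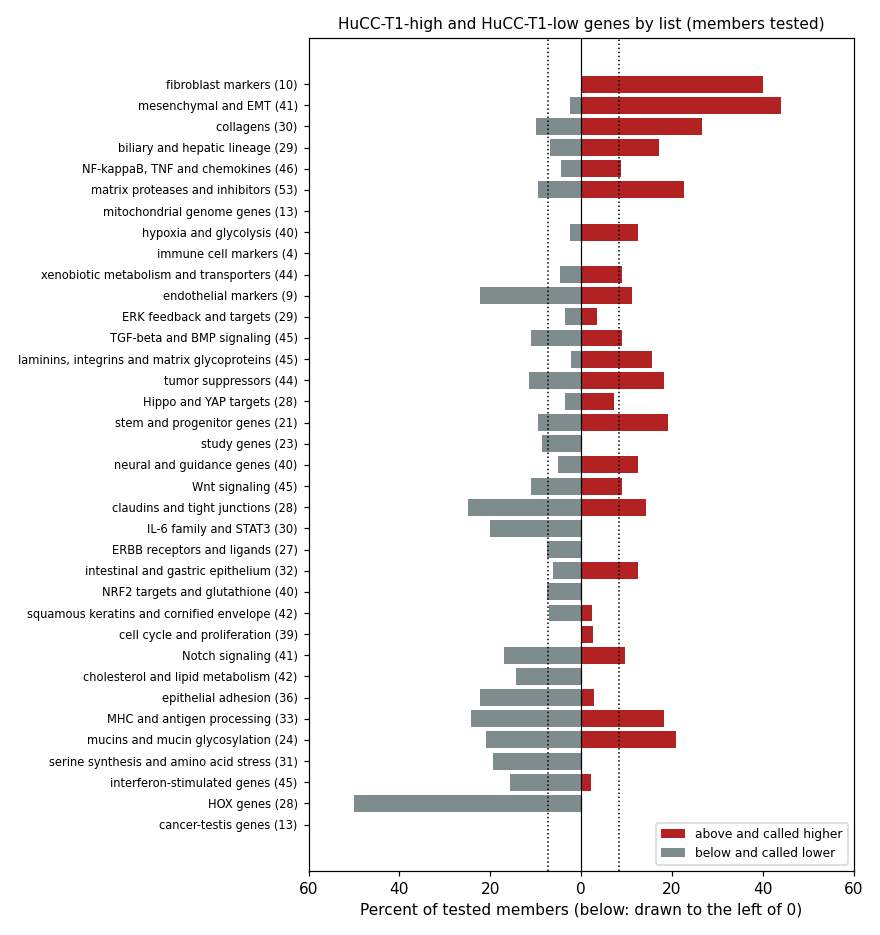
Share of each gene list's tested members with every HuCC-T1 tumor above and called higher in all 3 contrasts (right) or below and called lower (left), in percent. Lists run from the lowest median log2 difference (bottom) to the highest (top), the number of tested members is in parentheses, and dotted lines mark the shares over all genes, 8.33% and 7.32%. Mesenchymal genes reach furthest to the right and HOX genes furthest to the left.

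Mesenchymal genes were more often higher in HuCC-T1. Of 41 tested genes of the mesenchymal and EMT list, 28 were called higher and 3 lower in the averaged contrast, and 18 had every HuCC-T1 tumor above and were called higher in all 3 contrasts, beside 8.33% of all genes. The median log2 difference of the list was 2.051. POSTN, a matricellular protein, showed the largest difference, with 3290, 708, 784, 721 and 580 CPM in HuCC-T1. It was at 0.248 to 0.72 CPM in HuCC-A1 and had 1 count over the EGI-1 tumors. CDH2, which encodes N-cadherin, the cadherin of mesenchymal and neural cells, was at 61.5, 93.9, 94.1, 66.8 and 68.1 CPM in HuCC-T1 and at most 0.347 CPM in any other tumor (averaged log2 difference 9.42, SE 0.447, adjusted p = 2.87e-11). L1CAM, a neural adhesion molecule, stood at 749, 745, 707, 938 and 882 CPM in HuCC-T1. HuCC-A1 had 0.0307 to 0.64 CPM of it and EGI-1 47.4 to 68.9 CPM. VIM, the intermediate filament vimentin, was at 275 to 652 CPM in HuCC-T1, 51.6 to 176 CPM in HuCC-A1 tumors and 2.46 to 6.64 in EGI-1 tumors. The hyaluronan receptor CD44 was at 1770 to 2730 CPM, against 261 to 357 and 513 to 664 CPM. The EMT transcription factors ZEB1 and SNAI1 did not separate the model: ZEB1 averaged 8.55, 3.59 and 1.6 CPM in HuCC-T1, HuCC-A1 and EGI-1 with overlap between the first and second, and SNAI1 was at 1.15 CPM or less in HuCC-T1 and overlapped both.

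**Figure D4:**
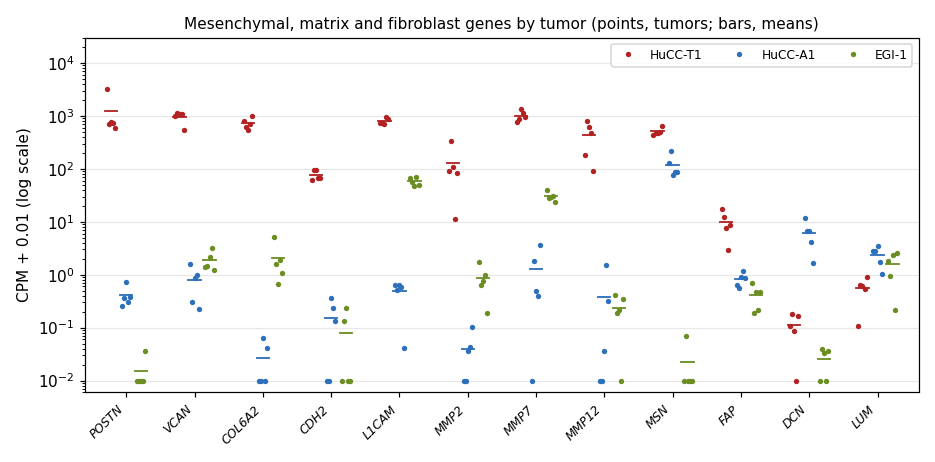
Values by tumor of mesenchymal, matrix and fibroblast genes, as CPM + 0.01 on a log axis. Points are tumors and bars are means of 5. The HuCC-T1 points lie above all others from POSTN to FAP, while DCN and LUM, both fibroblast genes, lie below 1 CPM in each HuCC-T1 tumor.

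Matrix genes moved in both directions. Of 30 collagens tested, 18 were called higher and 6 lower, with 8 separated above and 3 below in all contrasts and a median log2 difference of 1.853. COL6A2, a chain of the beaded filament collagen VI, was at 816, 620, 547, 699 and 989 CPM in HuCC-T1, had 3 counts over HuCC-A1 and stood at 0.645 to 5.25 CPM in EGI-1. COL6A1, its partner chain, overlapped EGI-1, at 370 to 777 CPM in HuCC-T1 and 200 to 434 CPM in EGI-1. COL4A1, of basement membranes, averaged 2.98 ± 1.57 CPM in HuCC-T1, 0.0604 in HuCC-A1 and 0.0138 in EGI-1. COL3A1 was lower than in HuCC-A1, at 4.64 to 13.7 CPM against 398 to 927 CPM, and overlapped EGI-1. COL28A1 and COL11A2 were among those below, with HuCC-T1 means of 0.742 and 0.832 CPM, HuCC-A1 means of 3.62 and 3.15 CPM and EGI-1 means of 4.28 and 5.7 CPM. VCAN, the hyaluronan-binding proteoglycan versican, was at 985, 1140, 1100, 1090 and 546 CPM in HuCC-T1 and at most 3.2 CPM in any other tumor. Of 45 laminins, integrins and matrix glycoproteins, 20 were called higher and 6 lower. THBS1, thrombospondin 1, was at 1910 to 4460 CPM in HuCC-T1, 227 to 480 in HuCC-A1 and 41.3 to 80.1 in EGI-1, and AGRN, the proteoglycan agrin, was the member below (631 to 1270 CPM against 1360 or more).

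The fibroblast marker list moved with these genes, so its whole level is given beside them. Over 12 markers the summed level was 828 to 3730 CPM in HuCC-T1, 427 to 952 in HuCC-A1 and 75.5 to 129 in EGI-1, and 7 of 10 tested markers were called higher, 2 lower. POSTN, COL1A1 and COL3A1 made up most of these sums. Without them the sums were 14.2 to 45, 6.87 to 19.6 and 1.49 to 3.78 CPM. The markers DCN and LUM stood at no more than 0.173 and 0.903 CPM in any HuCC-T1 tumor, PDGFRB at no more than 0.311 and THY1 at no more than 0.16 CPM. PDGFRB and THY1 were also low in the other models, at no more than 0.814 and 0.389 CPM. DCN was higher in HuCC-A1, at 1.66 to 11.7 CPM. FAP was at 2.97 to 17.2 CPM in HuCC-T1 and at most 1.16 CPM elsewhere. ACTA2 and COL6A3 were separated above as well, at 4.83 to 9.78 and 1.28 to 12.1 CPM against at most 2.75 and 0.427 CPM. COL1A2, at 3.11 to 18.6 CPM, overlapped HuCC-A1 (0.245 to 4.8 CPM), and so did PDGFRA (0.38 to 0.831 against 0.1 to 0.491 CPM). Several of these markers also belong to the collagen or mesenchymal lists. The part of fibroblasts in the result was not tested. In bulk tumors, fewer cells of a type and less RNA per cell cannot be told apart.

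Matrix proteases were mostly higher, with 29 of 53 tested members called higher and 11 lower, and 12 separated above and 5 below in all contrasts. MMP7, matrilysin, was at 754, 877, 1340, 1120 and 951 CPM in HuCC-T1, 0 to 3.56 CPM in HuCC-A1 tumors and 24 to 40.2 in EGI-1 tumors (averaged log2 difference 7.36, SE 0.478, adjusted p = 1.38e-09). The collagenases MMP1 and MMP13 and the stromelysin MMP3, its neighbors on chromosome 11, were also separated above, with HuCC-T1 means of 870 ± 529, 451 ± 281 and 25.6 ± 8.88 CPM. MMP12, macrophage elastase, was at 181, 819, 622, 472 and 91.6 CPM in HuCC-T1 and at most 1.55 CPM elsewhere. MMP2, a gelatinase, spread widely in HuCC-T1, at 92.4, 340, 107, 11.3 and 82.4 CPM, but all 5 tumors were above the highest other value of 1.74 CPM. TIMP3, described above, and the cysteine protease CTSV were among the members below, CTSV at 6.61 to 17.7 CPM against 47.6 CPM or more in the other tumors.

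Epithelial adhesion genes were more often lower. Of 36 tested members, 6 were called higher, 19 lower and 11 neither, and 8 were separated below in all contrasts against 1 above. ESRP2, a splicing regulator of epithelial cells, was at 39.2, 33.5, 25.2, 43.8 and 37.4 CPM in HuCC-T1, 147 to 222 in HuCC-A1 and 101 to 126 in EGI-1. EPS8L1, a regulator of actin, averaged 39.2, 111 and 543 CPM. PROM1, a glycoprotein of apical membrane protrusions, was the member above, at 70.6 to 303 CPM against at most 35.6 CPM. CDH1, the epithelial cadherin, overlapped HuCC-A1: HuCC-T1 had 259 to 476 CPM, HuCC-A1 426 to 552 and EGI-1 539 to 693 CPM.

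Claudins went both ways. CLDN2, which forms cation pores, was at 109, 103, 205, 158 and 45.7 CPM in HuCC-T1, at most 0.245 in HuCC-A1 and 1.14 to 2.79 in EGI-1. The sealing claudins CLDN3, CLDN4 and CLDN7 were all below: CLDN4 was at 89.5 to 224 CPM in HuCC-T1, 528 to 848 in HuCC-A1 and 358 to 559 in EGI-1, and CLDN7 at 52.1 to 103 CPM against 155 CPM or more. CLDN3 averaged 6.47 ± 3.4, 79.7 ± 31.5 and 32.9 ± 8.46 CPM. The scaffold genes TJP3 and CGNL1 were below as well, CGNL1 at 0.224 to 0.883 CPM in HuCC-T1. In all, 28 members of the claudin and tight junction list were tested, 10 were called higher and 12 lower, and 4 were separated above and 7 below in all contrasts. CLDN1, the claudin that the study targets, did not separate the model, at 701 to 1340 CPM in HuCC-T1, 3200 to 4820 CPM in HuCC-A1 tumors and 580 to 825 in EGI-1 tumors (log2 difference -1.92, adjusted p = 2.2e-07, against HuCC-A1, and 0.55, adjusted p = 0.019, against EGI-1).

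Mucins went both ways, and genes of the bile duct and liver lineage were more often higher. MUC6, a secreted mucin of gastric and pyloric glands, was at 410, 209, 345, 127 and 140 CPM in HuCC-T1 and at most 3.94 CPM elsewhere. MUC5B was at 458 to 1980 CPM against 60 to 224 CPM in EGI-1 and 0.6 to 5.49 CPM in HuCC-A1. CTSE, cathepsin E of gastric mucosa, averaged 69.8 ± 39.6, 0.304 ± 0.178 and 8.86 ± 2.42 CPM in HuCC-T1, HuCC-A1 and EGI-1. The membrane mucin MUC4 was at 4.03, 2.01, 1.91, 3 and 11.1 CPM in HuCC-T1, 15.6 to 136 in HuCC-A1 and 60.6 to 108 in EGI-1, and MUC15 was at most 0.486 CPM in HuCC-T1. CEACAM5, the carcinoembryonic antigen, was at 23 to 94.2 CPM against 138 to 874 and 227 to 605 CPM. Of 24 mucin and mucin glycosylation genes, 8 were called higher and 12 lower, with 5 separated each way. MUC6, CTSE and CEACAM5 are not among these 24 but belong to a list of intestinal and gastric genes. Of its 32 tested members, 8 were called higher and 8 lower, beside 28.3% and 25.6% of all genes. In all contrasts 4 of them were separated above and 2 below. Among 29 lineage genes of bile duct and liver, 16 were called higher and 6 lower, and 3 lower without HuCC-T1 replicate 1, 2 or 4 or HuCC-A1 replicate 1. HNF4A, a hepatic and intestinal nuclear receptor, stood at 8.81 to 43.3 CPM in HuCC-T1, 0.153 to 0.746 in HuCC-A1 and 2.24 to 6.17 in EGI-1. ANO1, a calcium-activated chloride channel, was at 781 to 1230 CPM, against 41.6 to 108 and 272 to 410 CPM. FOXA1 and FOXA3, related pioneer factors, went opposite ways. FOXA1 was at 1.06, 1.94, 1.01, 2.3 and 1.87 CPM in HuCC-T1 and 28.6 CPM or more in every other tumor. FOXA3 was at 7.82 to 14.2 CPM, above at most 0.666 CPM in HuCC-A1 tumors and 4.1 in EGI-1 tumors.

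Notch genes were called in both directions. In this pathway a ligand such as DLL1 or JAG1 on one cell activates a NOTCH receptor on the next, and HES and HEY repressors are its best known targets. Of 41 tested genes, 10 were called higher and 15 lower, with 4 separated above and 7 below in all contrasts, beside 28.3% and 25.6% of all genes called and 8.33% and 7.32% separated. NOTCH3 was at 2.24, 1.45, 1.27, 1.2 and 9.75 CPM in HuCC-T1, 34.8 to 211 in HuCC-A1 and 85.6 to 166 in EGI-1 (averaged log2 difference -5.21, SE 0.576, adjusted p = 8.66e-07). NOTCH1 was lower in the averaged contrast but overlapped EGI-1, with 43.3 CPM in HuCC-T1 replicate 5 and 12.5 to 17.8 CPM in the other 4 tumors, against 31.1 to 59.2 CPM in EGI-1. DLL1 was nearly without counts in HuCC-T1 and EGI-1 (at most 0.224 CPM) and at 56.8 to 111 CPM in HuCC-A1. JAG1 was at 250 to 675 CPM in HuCC-T1 and did not pass the test against HuCC-A1 (log2 difference -0.13, adjusted p = 0.607). The targets HES1 and HEY1 and their relative HES6 were all below. HES1 was at 57, 46.3, 35.8, 46.3 and 46.4 CPM in HuCC-T1 against 59.8 CPM or more elsewhere, and HEY1 at 0.032 to 1.12 CPM against 3.49 CPM or more. The coactivator MAML2 was above, at 97.4 to 190 CPM against at most 89.7 CPM, as was DTX3, a regulator of the pathway (14.9 to 25 CPM against at most 1.85 CPM).

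Among 45 genes of Wnt signaling, which acts through Frizzled receptors and beta-catenin, 15 were called higher and 12 lower, near the shares over all genes, 28.3% and 25.6%. LGR5, the R-spondin receptor and stem cell marker, was at 1.34, 1.56, 4.34, 2.54 and 1.59 CPM in HuCC-T1, had no count in HuCC-A1 and reached at most 0.538 CPM in EGI-1. LGR6, its paralog, was at 224 to 578 CPM in HuCC-T1, against 3.6 to 7.46 CPM in HuCC-A1 tumors and 88.6 to 193 in EGI-1 tumors. Neither LGR5 nor LGR6 is among the 45 genes counted. The ligase RNF43, which works with these receptors, was off, as described above, and KREMEN1, a receptor of the Wnt antagonists, was at 6.68 to 23 CPM against 24.8 CPM or more. Among 45 TGF-beta and BMP genes, 19 were called higher and 9 lower, and 10 and 9 with the 10 other tumors as 1 group. BMP4 was at 610, 315, 295, 480 and 363 CPM in HuCC-T1, 23.7 to 63.3 in HuCC-A1 and 156 to 208 in EGI-1, whereas BMP7 was close to off. LTBP2, a binding protein of latent TGF-beta, varied little, at 277 to 361 CPM, and stood 8.84-fold above the HuCC-A1 mean and 5-fold above the EGI-1 mean. The ID genes are common targets of BMP signals. ID3 was at 25.8, 3.29, 1.61, 5.65 and 9.62 CPM in HuCC-T1 and 59.2 CPM or more in the other tumors. ID4 had 1 count in HuCC-T1 and was also low in HuCC-A1, at 0.55 to 1.32 CPM, against 26.5 to 110 CPM in EGI-1. ID1 overlapped HuCC-A1: replicate 1 had 376 CPM while the other 4 tumors had 55.2 to 113 CPM. TGFBI, a secreted target of TGF-beta, was above, at 2140 to 4260 CPM against at most 632 CPM, and CTGF, a target of YAP and TGF-beta, at 22.2 to 77.8 CPM against at most 5.15 CPM. GDF15, a stress-induced member of the family, was below, at 7.16 to 17.2 CPM against 18.2 CPM or more.

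Interferon-stimulated genes were more often lower, and genes of antigen presentation were called in both directions. Of 45 interferon-stimulated genes, 4 were called higher and 25 lower, and 7 were separated below and 1 above in all contrasts, with a median log2 difference of -0.788. ISG15, a ubiquitin-like modifier, was at 57.5, 39.9, 102, 49.2 and 263 CPM in HuCC-T1, 392 to 935 CPM in HuCC-A1 tumors and 439 to 917 in EGI-1 tumors. OAS1, a sensor of double-stranded RNA, and OASL were below too, at 60.8 to 183 and 9.99 to 42.4 CPM, but OAS1 did so by a narrow margin, since the lowest other tumor had 184 CPM. The exception was IFITM2, an antiviral membrane protein, at 31.7 to 57.4 CPM against at most 29.9 CPM. Of 33 MHC and antigen processing genes, 11 were called higher and 18 lower, with 6 separated above and 8 below in all contrasts. HLA-C, a class I gene, was at 54.2, 36.2, 67.4, 72.6 and 110 CPM in HuCC-T1, 902 to 2210 in HuCC-A1 and 319 to 653 in EGI-1 (averaged log2 difference -3.48, SE 0.311, adjusted p = 7.02e-08). HLA-B and the peptide transporter TAP1 followed, with HuCC-T1 means of 214 ± 89.8 and 47.6 ± 27.1 CPM, HuCC-A1 means of 1260 ± 533 and 185 ± 66.6 CPM and EGI-1 means of 558 ± 133 and 120 ± 20.7 CPM. HLA genes are near-identical in sequence and differ between lines, so reads may be lost or shared among them. Members above included CIITA, the master regulator of class II, which was at 5.36 to 17.6 CPM in HuCC-T1 and at most 4.08 CPM elsewhere, and HLA-DRA at 12.9, 1.9, 18.1, 8.62 and 13.2 CPM against at most 0.75 CPM. CD74, the invariant chain, was at 86 to 306 CPM, against 1.58 to 10.3 and 29.3 to 40 CPM. The pan-leukocyte gene PTPRC was at 0.32 to 0.636 CPM in these tumors, and the summed immune marker list at 7.19 to 25.4 CPM overlapped both other models. The part of immune cells was not tested.

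Genes of the NF-kappaB, TNF and chemokine list were more often higher. Of 46 genes tested, 22 were called higher and 7 lower (12 lower without HuCC-T1 replicate 5, and 8 higher and 7 lower with the 10 other tumors as 1 group), with 4 separated above and 2 below in all contrasts. CXCL6, the neighbor and relative of CXCL5, was at 12.3, 24.6, 49.5, 17.6 and 33 CPM in HuCC-T1, 0.515 to 0.951 CPM in HuCC-A1 and without a count in EGI-1. PTGS2, which encodes cyclooxygenase-2, was above by a narrow margin, at 74.9 to 441 CPM against at most 71.2 CPM. The cytokine TNFSF15 and the chemokine CXCL16 were below, TNFSF15 at 2.49 to 10.9 CPM against 19.6 CPM or more. None of the 30 IL-6 family and STAT3 genes tested was separated above, and 6 were below in all contrasts (5 called higher and 10 lower in the averaged contrast). They included IL4R, a receptor chain for IL-4 that is on the list but outside the IL-6 family, at 22.9 to 45.9 CPM against 99.6 CPM or more. LRG1, a secreted glycoprotein induced by IL-6, was another, at 0.484 to 3.96 CPM against 7.78 CPM or more. STAT3 itself averaged 216, 219 and 200 CPM and did not pass the test in any contrast.

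Metabolic lists differed in direction. Of 31 tested genes of serine synthesis and amino acid stress, 4 were called higher and 17 lower, and 6 were separated below in all contrasts. Besides PSAT1, these included the transporters SLC1A4, at 0.703, 1.9, 2.92, 0.53 and 9.37 CPM in HuCC-T1 against 11.7 CPM or more, and SLC7A5, at 16.5 to 78.3 CPM against means of 294 and 156 CPM. Among 42 lipid genes, 8 were called higher and 20 lower. PLIN2, which coats lipid droplets, was at 0.895, 0.45, 2.88, 4.1 and 0.872 CPM in HuCC-T1, 13.8 to 37.7 CPM in HuCC-A1 tumors and 65.5 to 103 in EGI-1 tumors. Hypoxia and glycolysis genes were more often higher, with 22 of 40 called higher and 5 lower. CA9, a carbonic anhydrase induced by low oxygen, was at 63.7, 35.7, 43.2, 82.6 and 21.2 CPM in HuCC-T1, at most 0.16 in HuCC-A1 and 2.77 to 13.2 in EGI-1. PGK1, a glycolytic kinase gene on the X chromosome, was at 822 to 1300 CPM, against 155 to 227 and 376 to 645 CPM. NRF2 and glutathione genes had 6 called higher and 17 lower of 40. GSR, glutathione reductase, was below with little spread, at 40.6 to 46 CPM against 67 CPM or more. SLC13A5, the plasma membrane citrate transporter, was at 184, 133, 137, 144 and 210 CPM in HuCC-T1 and at most 0.805 CPM in any other tumor.

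Cell cycle genes other than the INK4 pair were more often lower. CDK6 was at 510, 769, 735, 568 and 643 CPM in HuCC-T1, 99 to 150 CPM in HuCC-A1 tumors and 73.9 to 96.6 in EGI-1 tumors, the single separated member among 39 cell cycle genes, of which 4 were called higher and 16 lower. Without HuCC-T1 replicate 5 these counts were 2 and 26. Of 27 ERBB and related receptor and ligand genes, 9 were called higher and 8 lower, near the shares over all genes, and none was separated above and 2 below, FGFR3 and INSR. FGFR3 was at 11.9, 13.5, 22.7, 18.7 and 17.4 CPM in HuCC-T1, 69.8 to 325 in HuCC-A1 and 300 to 617 in EGI-1, and the insulin receptor INSR at 4.38 to 7.33 CPM against 13.5 CPM or more. EGFR was at 544 to 1030 CPM, overlapping HuCC-A1 (747 to 1410 CPM) and above each EGI-1 tumor (at most 108 CPM). ERBB2 was lower in all 3 contrasts but overlapped HuCC-A1, at 140 to 262 CPM against 256 to 340 CPM. Of 44 genes of a tumor suppressor list, 18 were called higher and 14 lower, with 8 separated above and 5 below in all contrasts. The kinase gene BRAF was above, at 30.2 to 45.7 CPM against at most 23.9 CPM, as was APC, a Wnt pathway suppressor. STK11, which encodes LKB1, was below, at 33.4 to 72.5 CPM against 90.4 CPM or more.

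The counts of further lists follow, beside 28.3% of all genes called higher and 25.6% lower. Of 42 squamous keratin and cornified envelope genes, 10 were called higher and 12 lower (20 lower without HuCC-T1 replicate 5). Among the 3 separated below were IVL, the envelope protein involucrin, at 0.35 ± 0.435 CPM (SD, n = 5) in HuCC-T1 against means of 11 and 98.8 CPM, and DSC3, a desmosomal cadherin, at 17, 59.3 and 45.5 CPM. Of 40 neural and guidance genes, 15 were called higher and 11 lower. EPHB2, an ephrin receptor, averaged 163 CPM in HuCC-T1, 38.2 CPM in HuCC-A1 tumors and 42.7 in EGI-1 tumors and was separated above. Of 44 xenobiotic metabolism and transporter genes, 17 were called higher and 10 lower, and of 28 Hippo and YAP genes 10 and 4. Of 13 protein-coding genes of the mitochondrial genome, 7 were called higher and none lower or separated. All genes of that genome, listed or not, took 5.969% to 8.363% of the counts of HuCC-T1 tumors, 4.505% to 11.277% of HuCC-A1 and 3.938% to 5.64% of EGI-1. The endothelial marker list summed to 25.5 to 40.6 CPM in HuCC-T1, 47.6 to 60.9 in HuCC-A1 and 38.1 to 45.1 in EGI-1, with 3 of 9 tested markers called higher and 3 lower.

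Among 23 genes that the study itself follows, 7 were called higher and 5 lower, near the shares over all genes, 28.3% and 25.6%. None was separated above and 2, HES1 among them, were separated below in all contrasts, beside 8.33% and 7.32% of all genes. The study chose this list, so its direction is no independent evidence. EPCAM lay between the other models, at 245 to 385 CPM against 131 to 210 CPM in HuCC-A1 tumors and 480 to 600 in EGI-1 tumors. SOX2, a pluripotency factor, was at 0.104 to 1.09 CPM in HuCC-T1, 58.6 to 114 CPM in HuCC-A1 and without a count in EGI-1. YAP1, SRC and LATS1 each overlapped both other models, with averaged log2 differences of 0.15 (SE 0.125), 0.16 (SE 0.0907) and 0.15 (SE 0.15).

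The position of HuCC-T1 genes on the chromosomes was uneven. On the X chromosome 205 of 632 tested genes (32.4%) had every HuCC-T1 tumor above and 4 (0.633%) below, beside 8.53% and 7.37% over all genes. On chromosome 19 the shares were 1.77% above and 14.1% below, on chromosome 18 3.12% and 15.9%, on chromosome 14 15.5% and 8.47%, and on chromosome 10 14.4% and 5.03%. Named genes of X that were above included TMEM47, MSN, L1CAM, CLDN2, BGN, AMOT and PGK1. MSN, which encodes the cytoskeletal linker moesin, was at 438 to 652 CPM in HuCC-T1 and 77.4 to 214 CPM in HuCC-A1, and had 2 counts over the EGI-1 tumors. Chromosome copy number was not tested, and neighboring genes are not independent of each other.

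**Figure D5:**
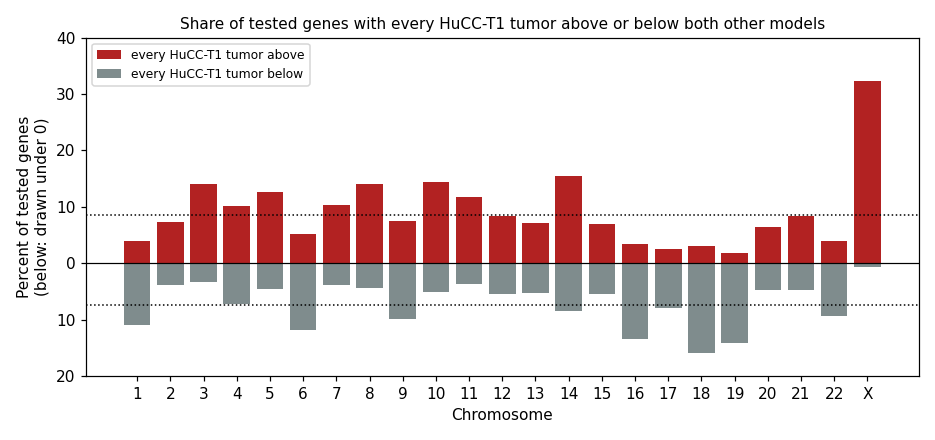
Percent of the tested genes of each chromosome with every HuCC-T1 tumor above (upward bars) or below (downward bars) both other models. Dotted lines mark the shares over all chromosomes, 8.53% and 7.37%. The X chromosome has the tallest upward bar, 32.4%, and chromosomes 18 and 19 the longest downward bars, 15.9% and 14.1%.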

How the data were processed

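Bulk RNA-seq of 15 vehicle-treated CDX tumors was analyzed, 5 per cell line. The authors deposited raw read counts per gene, and per the labels the libraries were made with a directional kit from TRIzol RNA. The submitters' processing notes name CASAVA, HISAT2 2.0.5, featureCounts 1.5.0-p3 and GRCh38, while the aligner's annotation, the strand setting and the handling of mouse reads are not stated there or in the methods. Of 58735 genes, 43600 had a count, and 21019 passed edgeR's filterByExpr. Counts were scaled by TMM and tested with edgeR 4.0.16 (quasi-likelihood, R 4.3.3), over all 15 tumors with 1 mean per model, and p-values were adjusted by Benjamini-Hochberg over all tested genes. The standard error is the absolute log2 difference over the root of F. Nothing says that the tumors of a model came from separate cultures, so p-values measure the spread between these tumors. Total counts were 20001412 to 44067878 per library. CPM is not scaled by gene length, so where genes are ranked by level, the ranks also depend on their length. No pair of libraries agreed within sampling noise.

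Alternatives were other scalings, filters, tests, a replicate block, pooling of the 10 other tumors, and leaving out each tumor. Members and lists were chosen with earlier results of these data known. Genes were named by size of difference (15 each way with a mean of at least 10 CPM), as on or off only (10 each), or as leading members of a list (3 in its main direction and 2 in the other, with a mean of at least 2 CPM), plus the study's own genes, with some of these left out to save space. Markers, neighbors and overlapping genes, partners of a named gene and genes just outside the rule were chosen after their values were seen, as were further members of the HOX, matrix, claudin, lineage, immune, receptor and tumor suppressor lists. Promoter windows came from RefSeq (GRCh38.p14), and gene positions from GENCODE release 29. Some genes are not reported here.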

Additional observations from a re-analysis of the deposited data

Results flagged for a closer look

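Single tumors far from the other 4 of their model were looked for in each gene named above and in the fibroblast marker sum, wherever a tumor of the model reached 1 CPM. A tumor was noted where its gap to the nearest tumor, over the range of the model, exceeded Dixon's critical value of 0.71. Chance notes about 1 in 20 groups. In HuCC-T1 13 of 131 were noted (9.92%), in HuCC-A1 11 of 128 (8.59%) and in EGI-1 8 of 127 (6.3%).

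HuCC-T1 replicate 5 was the tumor noted most often in that model. It was highest for NOTCH1 (43.3 CPM, the next tumor at 17.8), NOTCH3 (9.75, next 2.24), ISG15 (263, next 102), KREMEN1 (23, next 7.29), MUC4 (11.1, next 4.03) and SLC1A4 (9.37, next 2.92), and lowest for VCAN (546, next 985). Except for NOTCH1, each of these genes kept the HuCC-T1 tumors apart from all others with replicate 5 included. HuCC-T1 replicate 1 was highest for POSTN (3290 CPM, next 784), VIM (652, next 349), ID1 (376, next 113) and the fibroblast marker sum (3730, next 1280), to which POSTN belongs. HuCC-T1 replicate 4 was lowest for COL1A1 (85, next 403), and replicate 3 highest for AMOT (30.2, next 18.6).

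In HuCC-A1, replicate 2 was highest for HLA-C (2210 CPM), KRT7 (1700), SOX9 (73.1) and CD74 (10.3). Replicate 1 was highest for PTPRC (4.18) and lowest for IFNE (5.45). Replicate 3 was highest for HES1 (96.2) and HOTAIR (5.57), replicate 4 for MMP12 (1.55), and replicate 5 for NOTCH1 (485) and ID3 (174). In EGI-1, replicate 5 was highest for CEACAM5 (605 CPM), STAT3 (224), PAX9 (39.3), PTGS2 (18.4) and CGNL1 (5.35), replicate 1 for TIMP3 (450) and COL6A2 (5.25), and replicate 4 for PROM1 (35.6).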

How the results depend on the processing

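No gene examined reversed its direction with a call in the alternatives run, but the balance of the genome-wide counts did reverse in some. With the 10 other tumors as 1 group, 3502 genes were called higher in place of 5941, and 4334 lower in place of 5381. More genes were then lower than higher. CPM over raw totals gave 1565 genes above and 1708 below, in place of 1792 and 1550. Requiring a 2-fold gap left 408 genes above and 349 below, and requiring 10 counts in each library left 1188 above. Limits of 2 and 0.05 CPM left 9 genes on only and 10 off only, and limits of 0.5 and 0.2 CPM gave 56 and 56. Leaving out each tumor in turn gave 5518 to 6311 genes higher and 4785 to 5471 lower against both models, 5485 to 6094 and 5455 to 6266 against HuCC-A1, and 5316 to 6085 and 4864 to 5430 against EGI-1. It gave 1832 to 2344 genes above, 1583 to 2042 below, 21 to 26 on only and 24 to 28 off only, where fewer tumors make separation easier. Same-numbered tumors did not deviate together (r -0.105 to 0.186, others -0.222 to 0.217), so the numbers do not pair the tumors. A replicate block gave 5717 higher and 5352 lower against both models, 5540 and 6014 against HuCC-A1, and 5456 and 5249 against EGI-1. Among the genes examined, 3607 values kept their call, 20 lost it and 7 gained it. CLDN1 (adjusted p = 0.12) and JAG1 (0.372) lost it with the 10 tumors as 1 group, and LATS1 gained it without HuCC-T1 replicate 1 (0.0458). Of the list counts, 1513 stayed within 1.5 times and 71 did not, 31 of those with the 10 tumors as 1 group and 25 with at least 10 counts in each library, which tests fewer genes. As 1 group, the members called higher fell from 22 to 8 for NF-kappaB, 22 to 10 for hypoxia, 16 to 8 for bile duct and liver and 29 to 19 for matrix proteases. With at least 10 counts, they fell from 28 to 17 for mesenchymal genes, 18 to 8 for collagens and 29 to 12 for matrix proteases, and those called lower from 19 to 4 for HOX genes. Genes at a few counts per library are limited by depth, and an absent count allows up to 3.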
